A study of Homo sapiens with 3 samples.

Results

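The 5 genes described here encode the activators of plasminogen and the proteins that dock or block them: PLAU, PLAUR, PLAT, SERPINE2 and SERPINB2. They were taken as a list by symbol, matched to Ensembl identifiers, and all 5 were among the 23379 genes of the deposited files. PLAU encodes urokinase (uPA), a secreted serine protease that cuts plasminogen into active plasmin. PLAUR encodes the urokinase receptor (uPAR), which is anchored in the plasma membrane and holds urokinase at the cell surface. PLAT encodes the tissue-type activator (tPA), which activates plasminogen mainly at the surface of fibrin. SERPINE2 (protease nexin-1) and SERPINB2 (plasminogen activator inhibitor 2, PAI-2) are serpins, inhibitors that trap a serine protease in a covalent complex. Plasmin dissolves fibrin and cuts matrix proteins, and in carcinoma cells urokinase and its receptor are studied for their part in invasion.

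RNA sequencing was done on DU145, an established human line from a metastasis of a prostate carcinoma, with 1 library in each of 3 groups. L597R cells were transfected with plasmids carrying the BRAF mutant L597R, WT cells overexpressed wild-type BRAF, and P-Enter was the negative control. BRAF is the kinase that relays RAS signals to MEK and ERK, and AP-1 and ETS factors downstream of ERK are known regulators of PLAU and PLAUR. The labels give no clone, promoter, time after transfection or culture replicate, so every difference rests on single libraries without a replicate check and comes without a p-value. BRAF itself stood at 9.59 FPKM in L597R, 4.41 in WT and 1.65 in P-Enter, so L597R and WT differ both in the mutation and in the amount of BRAF transcript, and these cannot be told apart. Libraries held 16603676 counted reads in L597R, 15665132 in WT and 13294004 in P-Enter. FPKM scales reads to the length of the gene and to the counted reads of the library. Levels of different genes can be compared only as far as that length fits the transcripts present. The keratin KRT18 stood at 34.3 to 37.6 FPKM over the libraries, while KRT8 stood at 0.534 to 0.623 FPKM and KRT19 had 0 to 3 reads. The epithelial genes CDH1 and EPCAM, and the prostate genes KLK2, KLK3 and FOLH1, had 0 to 1 read in any library, so the name of the line rests on the labels. Markers of fibroblasts, endothelium and leukocytes had at most 14 reads each.

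The 3 DNA stretches that follow lie upstream of annotated starts of PLAU, PLAUR and SERPINB2. All 3 lie inside the annotated spans of these genes, which begin further upstream. The PLAUR stretch lies in an exon of a longer transcript. The stretches are shown because PLAU and PLAUR were the abundant members and SERPINB2 had the largest ratios. A further reason is that AP-1 factors act downstream of BRAF. Capitals mark matches, on either strand, to the AP-1 motif TGANTCA, the GC box GGGCGG, the TATA box TATAAA or the cyclic AMP response element TGACGTCA. Sequences are from RefSeq, build GRCh38.p14, given 5′ to 3′ on the strand of the gene.
PLAU, chr10:73910882-73911103, plus strand: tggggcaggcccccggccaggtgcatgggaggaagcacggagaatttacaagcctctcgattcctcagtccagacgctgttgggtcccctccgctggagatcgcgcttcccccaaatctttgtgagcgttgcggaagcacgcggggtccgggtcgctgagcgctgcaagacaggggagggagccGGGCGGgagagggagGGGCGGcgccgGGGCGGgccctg
PLAUR, chr19:43670338-43670366, minus strand: tcacaactccaTGAGTCAgggccgagcca
SERPINB2, chr18:63887455-63887699, plus strand: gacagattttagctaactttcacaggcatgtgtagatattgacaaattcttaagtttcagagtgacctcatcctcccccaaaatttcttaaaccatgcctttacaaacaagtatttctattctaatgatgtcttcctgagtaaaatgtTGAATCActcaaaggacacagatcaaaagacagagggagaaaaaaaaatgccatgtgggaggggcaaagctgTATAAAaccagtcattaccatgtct

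In the 250 bases before its start, PLAU held 3 GC boxes and no AP-1 match; a GC box was found in 42.5% of 34943 such windows of all genes. PLAUR held 1 AP-1 match, beginning 186 bases before its start, and SERPINB2 held 1, beginning 102 bases before. AP-1 matches were found in 6.59% of all windows. The TATA box of SERPINB2 began 30 bases before its start, and 10.8% of windows held one. None of these windows held the cyclic AMP response element, found in 1.63% of windows. A match is a run of letters and not evidence of a bound factor. Starts were available for 4 of the 5 genes, PLAT being the other one. PLAU had 2 starts, of which the one with GC boxes is shown, and the window of the other held no match to any of the motifs. The windows of SERPINE2, not shown, held 1 and 2 GC boxes and no match to the other motifs.

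Urokinase was by far the most abundant member, at 87.0 FPKM in L597R, 93.6 in WT and 103 in P-Enter. That placed PLAU above 96.9%, 97.1% and 97.4% of the protein-coding genes detected in the L597R, WT and P-Enter libraries. The receptor PLAUR followed at 15.1, 14.6 and 13.6 FPKM in L597R, WT and P-Enter. The remaining members were near or below 1 FPKM. SERPINE2 stood at 1.28 FPKM in L597R, 1.18 in WT and 0.974 in P-Enter. PLAT stood at 0.566, 0.616 and 0.562 FPKM in L597R, WT and P-Enter. SERPINB2 stood at 0.791 FPKM in L597R, 0.163 in WT and 0.467 in P-Enter. The order of levels PLAU, PLAUR, SERPINE2 was the same in all 3 libraries. Below them the order of PLAT and SERPINB2 differed: SERPINB2 was above PLAT in L597R and below it in WT and P-Enter, with overlapping counting intervals in L597R and in P-Enter. PLAU made up 83.0%, 85.0% and 86.9% of the summed FPKM of the 5 genes in L597R, WT and P-Enter. In these cells the activator transcript pool was thus almost wholly urokinase. PLAU FPKM was 154, 152 and 184 times that of PLAT in L597R, WT and P-Enter. These factors and the shares of the sum rest on the gene lengths behind the values, 2949 bases for PLAU and 7770 for PLAT. In counted reads PLAU had 4262, 4323 and 4057 and PLAT 73, 75 and 58, in the same order of libraries.

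**Figure D1:**
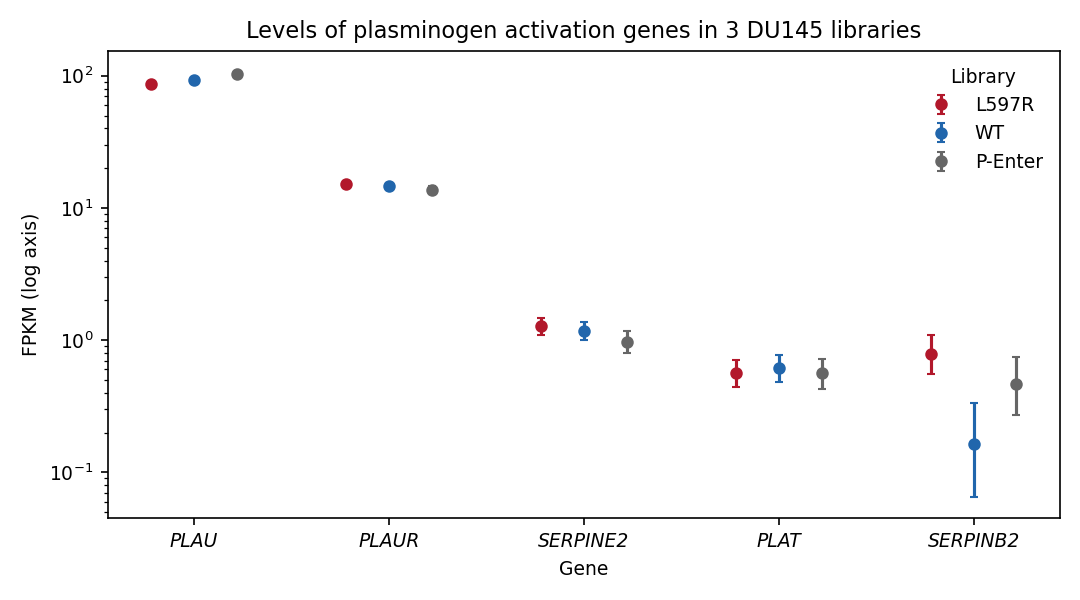
FPKM (log axis) of the 5 genes in the libraries L597R, WT and P-Enter; bars are exact 95% intervals of the read count and cover counting error only. PLAU (87.0 to 103 FPKM) lies far above the rest, while SERPINB2 is the gene whose libraries lie farthest apart, at 0.791, 0.163 and 0.467 FPKM in L597R, WT and P-Enter.

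Differences were read by a coarse and a finer rule. By the size rule, a gene passed when its mean over the 3 libraries was 1 FPKM or more and its log2(FPKM + 1) values were 1 or more apart. This scale understates the change of low genes. None of the 5 genes passed in any comparison; among 10639 genes with that mean, 0.808% passed for L597R over P-Enter, 0.978% for WT over P-Enter and 0.724% for L597R over WT, where "over" names the library on top of the ratio first. Of the 5 genes, PLAU, PLAUR and SERPINE2 reached the mean of 1 FPKM, and PLAT and SERPINB2 did not, so these could not pass. The finer rule asked whether the exact 95% interval of the read ratio, from whole reads worked out from the FPKM values, leaves out 1. It covers counting error only and compares libraries, not conditions, and for genes with many reads small differences meet it. For L597R over P-Enter the interval lay above 1 for 25.5% of genes and below 1 for 23.9%. For WT over P-Enter the shares were 14.0% and 12.1%, and for L597R over WT 22.1% and 16.3%.

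PLAU was lower in L597R and in WT than in P-Enter, by a modest amount. It was counted with 4262 reads in L597R, 4323 in WT and 4057 in P-Enter, or 257, 276 and 305 CPM of counted reads. The libraries stood in the order L597R, WT, P-Enter from low to high. The read ratio was 0.841 for L597R over P-Enter (95% interval 0.806 to 0.878), 0.904 for WT over P-Enter (0.866 to 0.944) and 0.930 for L597R over WT (0.891 to 0.971). All of these intervals lay below 1, as did those of 23.9%, 12.1% and 16.3% of all genes in the same comparisons. The log2(FPKM + 1) differences were -0.25, -0.14 and -0.10. PLAU (ENSG00000122861) lies on chromosome 10 from 73909177 to 73917497 on the plus strand of GRCh38. It is overlapped on the minus strand by C10orf55, which had 3 reads in L597R, 10 in WT and 14 in P-Enter; without the strand setting of the counting, reads of the pair cannot be assigned with certainty.

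PLAUR, whose product binds urokinase, ran the other way. It had 1120 reads in L597R, 1017 in WT and 805 in P-Enter, or 67.5, 64.9 and 60.6 CPM. The libraries stood in the reverse of the order of PLAU, with L597R highest. The read ratio was 1.11 (1.02 to 1.22) for L597R over P-Enter. For WT over P-Enter it was 1.07 (0.976 to 1.18) and for L597R over WT 1.04 (0.954 to 1.13), so neighbours in this order did not differ beyond counting error. PLAUR (ENSG00000011422) lies on chromosome 19, minus strand, between 43646095 and 43670547. The FPKM of PLAU was 5.75 times that of PLAUR in L597R, 6.42 times in WT and 7.62 times in P-Enter.

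SERPINE2, an inhibitor of thrombin as well as of urokinase and tPA, was counted with 190 reads in L597R, 165 in WT and 116 in P-Enter. Again L597R was highest and P-Enter lowest. The read ratio was 1.31 (1.04 to 1.67) for L597R over P-Enter, with a log2(FPKM + 1) difference of 0.21. It was 1.21 (0.946 to 1.54) for WT over P-Enter and 1.09 (0.877 to 1.35) for L597R over WT, both with intervals that held 1. Its neighbour WDFY1, within 50 kb and chosen after its values were seen, had a ratio of 1.36 (1.23 to 1.51) for L597R over P-Enter and 1.23 (1.11 to 1.36) for WT over P-Enter. The other neighbour within that distance, MRPL44, had ratios of 0.918 (0.821 to 1.03) and 0.953 (0.852 to 1.07) in the same comparisons. SERPINE2 (ENSG00000135919) lies on chromosome 2, minus strand, between 223975112 and 224039319.

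SERPINB2 had the largest ratios of the list and the fewest reads: 36 in L597R, 7 in WT and 17 in P-Enter. L597R was highest and WT lowest, with P-Enter between them. The read ratio was 4.85 (2.13 to 12.9) for L597R over WT and 0.349 (0.123 to 0.887) for WT over P-Enter. Both of these rest on the same 7 reads of WT and are not separate findings. For L597R over P-Enter the ratio was 1.70 (0.928 to 3.22), an interval that holds both no change and a 3-fold one. Among 6156 genes with a mean of 0.1 to 1 FPKM, the interval lay above 1 for 3.93% in L597R over WT and for 3.88% in L597R over P-Enter, and below 1 for 4.65% in WT over P-Enter. SERPINB2 is found mostly inside the cell and is known as a strongly inducible gene of monocytes. It (ENSG00000197632) lies on chromosome 18 from 63871692 to 63903890 on the plus strand, within a cluster of clade B serpins. Its cluster neighbours SERPINB10 and SERPINB13 were absent from the files and count as 0. SERPINB8, a further gene of that clade, had 862 reads in L597R, 580 in WT and 474 in P-Enter, and ratios of 1.46 (1.30 to 1.63) for L597R over P-Enter and 1.40 (1.26 to 1.56) for L597R over WT, but 1.04 (0.918 to 1.17) for WT over P-Enter. SERPINB7 had 9 reads in L597R, 8 in WT and 12 in P-Enter. The neighbour HMSD, within 50 kb, had ratios of 1.004 (0.786 to 1.28) for L597R over P-Enter, 0.953 (0.741 to 1.23) for WT over P-Enter and 1.05 (0.831 to 1.34) for L597R over WT.

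PLAT, the other activator, was level in the 3 libraries within wide intervals, with 73 reads in L597R, 75 in WT and 58 in P-Enter. The read ratio was 1.01 (0.704 to 1.45) for L597R over P-Enter, 1.1 (0.769 to 1.57) for WT over P-Enter and 0.918 (0.656 to 1.28) for L597R over WT. Differences smaller than these intervals were not detectable at this depth. PLAT (ENSG00000104368) lies on chromosome 8, minus strand, between 42175233 and 42207724.

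**Figure D2:**
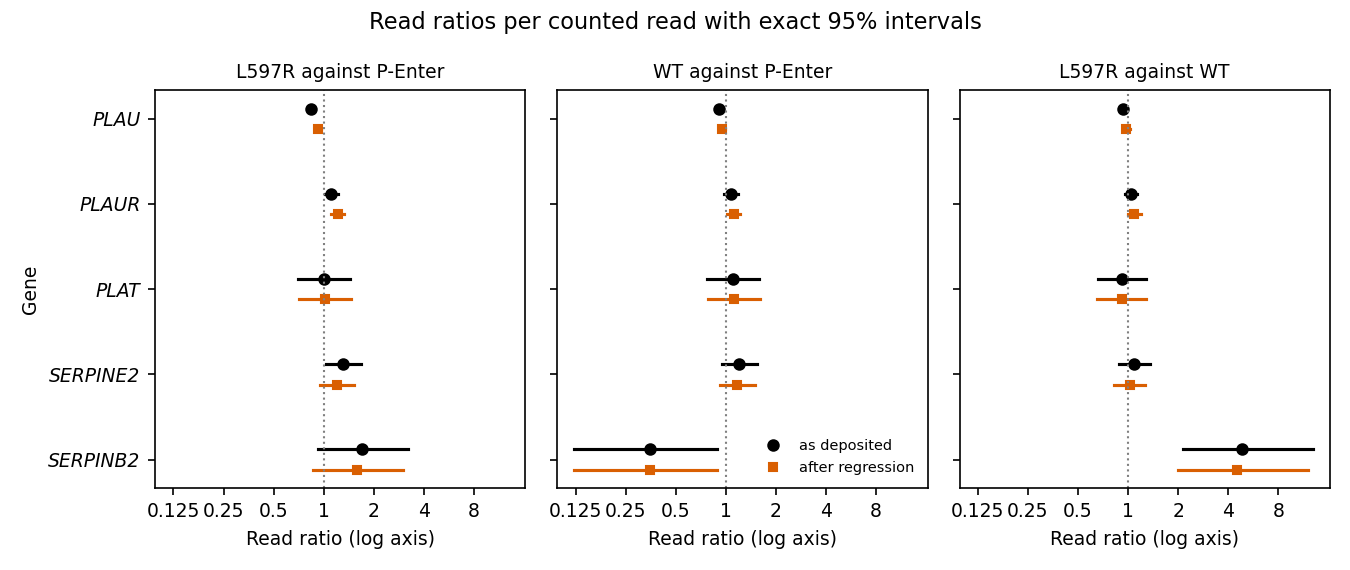
Read ratios per counted read (log axis) of the 5 genes in the comparisons of L597R with P-Enter, WT with P-Enter and L597R with WT, with exact 95% intervals, as deposited (black circles) and corrected by a regression on transcript length, GC content and level (orange squares). The points of PLAU lie left of 1 and those of PLAUR right of 1 in every panel. The deposited PLAUR intervals hold 1 for WT over P-Enter and for L597R over WT. So does the PLAU interval after the regression for L597R over WT. SERPINB2 changes sides between WT over P-Enter (0.349) and L597R over WT (4.85). Both of these SERPINB2 ratios use the same WT library, with 7 reads. PLAT and SERPINB2 have means below the 1 FPKM of the genes fitted in the regression, so their orange squares are extrapolated.

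Differences between these libraries followed the GC content of transcripts across 9358 protein-coding genes, with a Spearman coefficient of -0.69 for L597R over P-Enter, -0.45 for WT over P-Enter and -0.59 for L597R over WT (genes are not independent replicates). GC-rich transcripts thus tended to be lower in L597R. PLAU has a GC content of 54.0% and PLAUR of 55.7%, while SERPINE2 and SERPINB2 have 41.0% each. A regression on length, GC content and level together removed 47.4%, 18.2% and 31.4% of the variance of these differences, in the same order of comparisons. After it the PLAU log2 difference for L597R over P-Enter was -0.11, against -0.25 before. PLAU stayed below 1 at a ratio of 0.923 (0.884 to 0.964) for L597R over P-Enter and 0.944 (0.904 to 0.986) for WT over P-Enter. For L597R over WT it came to 0.978 (0.937 to 1.02), an interval that holds 1. PLAUR moved further from 1 after the regression, to 1.22 (1.11 to 1.33), 1.11 (1.01 to 1.22) and 1.09 (1.003 to 1.19) in the same 3 comparisons. After the regression 18.7%, 10.7% and 14.7% of protein-coding genes had intervals above 1 in those comparisons, and 16.7%, 10.5% and 13.0% had intervals below 1. SERPINE2 came to 1.20 (0.948 to 1.53) for L597R over P-Enter, so its difference no longer cleared counting error. SERPINB2 came to ratios of 4.54 (1.99 to 12.1) for L597R over WT and 0.349 (0.122 to 0.886) for WT over P-Enter. Its mean lies below the 1 FPKM of the fitted genes, so its correction is extrapolated and cannot show whether its differences withstand the regression. The correction was estimated on the log2(FPKM + 1) scale, which understates changes of low genes, and then applied to read ratios. It may therefore be too small for SERPINE2 and SERPINB2. What part GC content has in these differences was not tested.

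**Figure D3:**
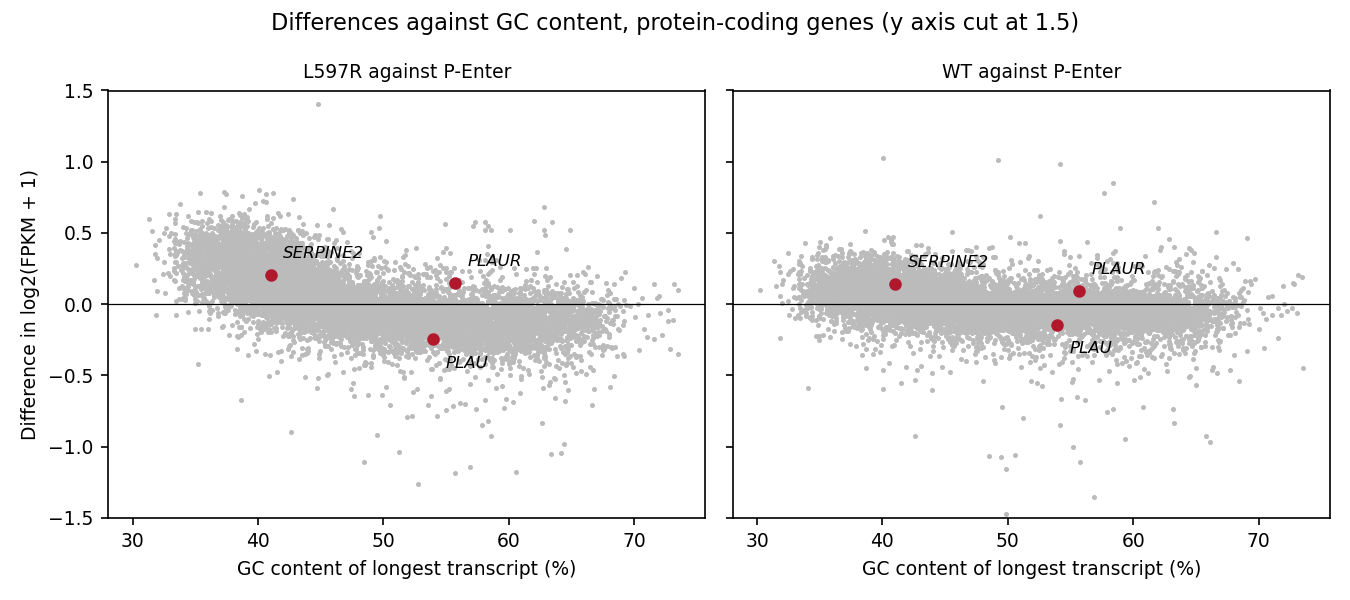
Difference in log2(FPKM + 1) against the GC content (%) of the longest transcript, for protein-coding genes with a mean of at least 1 FPKM (grey), with PLAU, PLAUR and SERPINE2 in red; left L597R over P-Enter, right WT over P-Enter, with the y axis ending at 1.5. The cloud slopes down to the right; PLAU (-0.25 and -0.14) lies under the zero line and PLAUR (0.15 and 0.09) above it at nearly the same GC content.

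The genes most like PLAU over the 3 libraries, by Euclidean distance of the 2 log2(FPKM + 1) differences from P-Enter, were BYSL (distance 0.0046), TMEM259 (0.0056) and GYS1 (0.0074). They were the nearest of 4102 protein-coding genes with a mean of at least 10 FPKM, and 114 of these lay within 0.05 of PLAU. For PLAUR the nearest were CLDND1 (0.0040), CANX (0.0051) and RAB11A (0.0053), with 128 genes within 0.05. Patterns of this shape were therefore shared by many genes of these libraries.

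The other genes of the system were read from 3 lists of 74 genes. The first holds cofactors and receptors of activation; 18 of its 25 genes reached a mean of 1 FPKM. None passed the size rule in any comparison. Their median log2 difference was -0.07 for L597R over P-Enter (all tested genes -0.01), -0.03 for WT over P-Enter (all -0.00) and -0.02 for L597R over WT (all 0.01). For L597R over P-Enter the interval lay above 1 for 4 and below 1 for 8 of the 18. For WT over P-Enter it lay above 1 for 3 and below 1 for 5, and for L597R over WT above 1 for 3 and below 1 for 6. Over all tested genes it lay above 1 for 25.5%, 14.0% and 22.1% and below 1 for 23.9%, 12.1% and 16.3% in these comparisons. Whether the list differs from these shares was not tested. Plasminogen itself (PLG), which the liver makes, was absent from the files and counts as 0 in all 3 libraries.

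The genes of highest level in this list dock plasminogen at the cell surface. ENO1, an enzyme of glycolysis that also binds plasminogen at the surface, stood at 828 FPKM in L597R, 914 in WT and 924 in P-Enter. S100A10, which with ANXA2 forms a docking complex for plasminogen and tPA, stood at 270.2, 266 and 271 FPKM in L597R, WT and P-Enter. The clearance receptor LRP1, which takes up urokinase bound to its inhibitors, was low at 1.63, 1.73 and 2.03 FPKM in L597R, WT and P-Enter, with a ratio of 0.801 (0.711 to 0.901) for L597R over P-Enter. MRC2, a collagen receptor that associates with PLAUR, stood at 13.5, 15.04 and 17.0 FPKM in L597R, WT and P-Enter, with a ratio of 0.794 (0.739 to 0.854) for L597R over P-Enter. PLGRKT, a membrane receptor of plasminogen, had 187, 199 and 197 reads in L597R, WT and P-Enter and a ratio of 0.760 (0.619 to 0.933) for L597R over P-Enter. Of the integrins, which PLAUR contacts in the membrane, ITGAV stood at 14.6 FPKM in L597R, 11.5 in WT and 9.76 in P-Enter. Its ratio was 1.5 (1.39 to 1.62) for L597R over P-Enter and 1.18 (1.09 to 1.28) for WT over P-Enter. ITGB1 stood at 100.1 FPKM in L597R, 83.9 in WT and 76.6 in P-Enter, with ratios of 1.31 (1.28 to 1.33) for L597R over P-Enter and 1.1 (1.07 to 1.12) for WT over P-Enter. Other integrins of the list went the other way. ITGA3 stood at 93.8 FPKM in L597R, 110 in WT and 117 in P-Enter. Its ratio for L597R over P-Enter was 0.805 (0.787 to 0.823), and that of ITGB5 was 0.913 (0.870 to 0.959). ITGA5 had a ratio of 0.936 (0.861 to 1.02), an interval that holds 1. TFPI, the inhibitor of the tissue factor pathway, stood at 18.9, 16.6 and 14.9 FPKM in L597R, WT and P-Enter, with ratios of 1.27 (1.21 to 1.34) and 1.12 (1.06 to 1.18) against P-Enter. After the regression the log2 difference for L597R over P-Enter was 0.28 for ITGAV, 0.21 for ITGB1 and 0.16 for TFPI, against 0.54, 0.38 and 0.33 before it. For ITGA3 this difference was -0.15 after and -0.31 before, and for ITGB5 -0.01 after and -0.13 before. For LRP1 it was -0.07 after and -0.21 before, and for MRC2 -0.18 after and -0.31 before. PLGRKT moved further from 0, to -0.53 after from -0.35 before.

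Of the 26 other serpins and protease inhibitors, 6 reached a mean of 1 FPKM, none passed the size rule, and the median log2 difference was -0.09 for L597R over P-Enter, -0.03 for WT over P-Enter and -0.06 for L597R over WT. In these comparisons the interval lay above 1 for 1, 0 and 1 of the 6 and below 1 for 2, 2 and 0. Over all tested genes it lay above 1 for 25.5%, 14.0% and 22.1% and below 1 for 23.9%, 12.1% and 16.3%. Whether these serpins differ from those shares was not tested. SERPINH1, a collagen chaperone that inhibits no protease, stood at 27.2, 28.5 and 30.1 FPKM in L597R, WT and P-Enter. SERPINB8 had the widest range of this list, at 9.01 FPKM in L597R, 6.42 in WT and 6.19 in P-Enter, followed by SERPINF1 at 1.23, 1.0 and 1.41 FPKM. SERPINB1 stood at 4.15 FPKM in L597R, 4.59 in WT and 3.90 in P-Enter, and SERPINB6 at 9.14, 9.56 and 10.3 FPKM.

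Among 23 substrates and partner proteases, 9 reached a mean of 1 FPKM, with median log2 differences of 0.06 for L597R over P-Enter, 0.03 for WT over P-Enter and 0.01 for L597R over WT. The interval lay above 1 for 2, 0 and 2 of the 9 and below 1 for 4, 1 and 2. Over all tested genes it lay above 1 for 25.5%, 14.0% and 22.1% and below 1 for 23.9%, 12.1% and 16.3%. Whether this list differs from those shares was not tested. MMP3, a matrix protease whose proenzyme plasmin can activate, was the only gene of the 3 lists past the size rule. It passed for L597R over P-Enter and for L597R over WT, with 127 reads in L597R, 38 in WT and 23 in P-Enter. MMP1, the interstitial collagenase, had 24 reads in L597R, 3 in WT and 2 in P-Enter; its mean was below 1 FPKM, and it was chosen after its values were seen. MET, the receptor of hepatocyte growth factor, stood at 24.4 FPKM in L597R, 19.6 in WT and 18.5 in P-Enter, with a ratio of 1.32 (1.24 to 1.40) for L597R over P-Enter. The related receptor MST1R stood at 6.0, 6.13 and 7.53 FPKM in L597R, WT and P-Enter, with ratios of 0.796 (0.704 to 0.90) and 0.813 (0.718 to 0.921) against P-Enter. Values of this list are as deposited, without the regression. F2R, the thrombin receptor PAR1, stood at 2.03 FPKM in L597R, 1.61 in WT and 1.70 in P-Enter. CDCP1, a surface protein that serine proteases cleave, stood at 83.9, 86.6 and 88.1 FPKM, and TGFB1, whose latent product plasmin can release, at 57.7, 60.4 and 61.3 FPKM in L597R, WT and P-Enter.

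**Figure D4:**
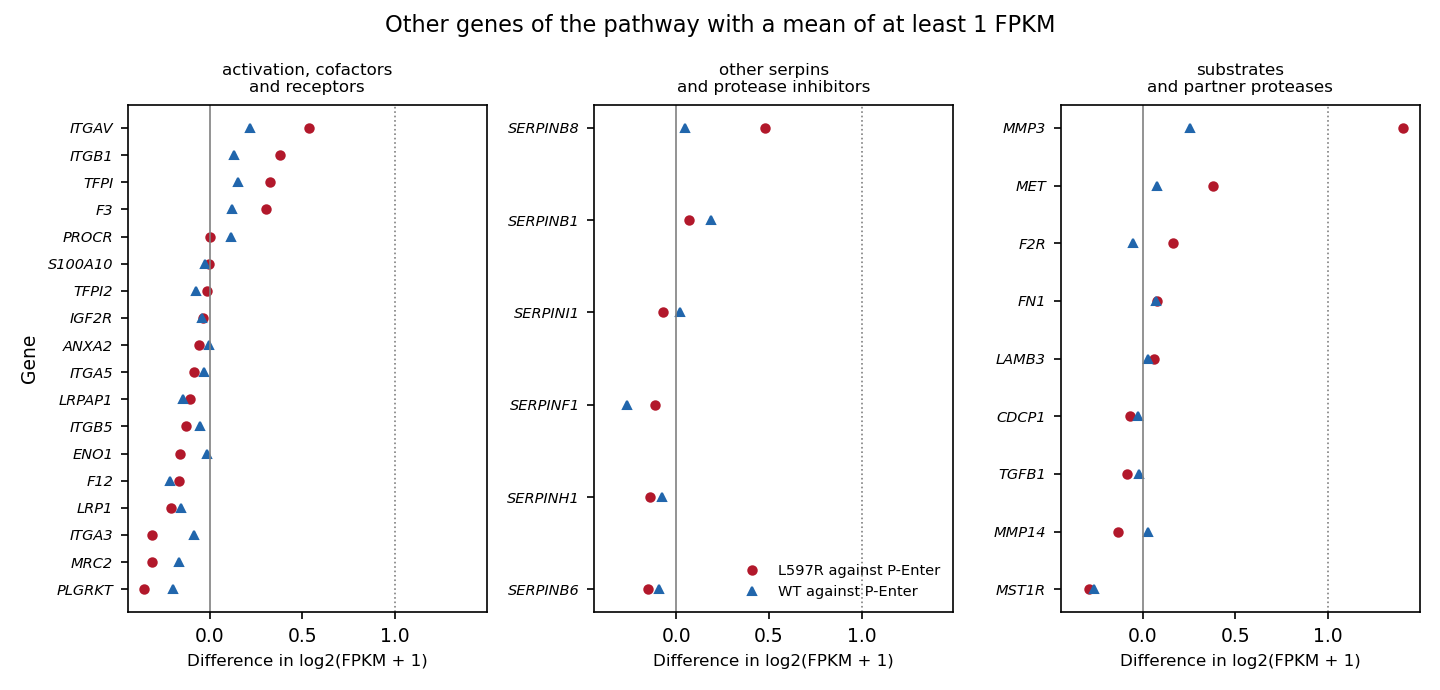
Differences in log2(FPKM + 1) for list genes with a mean of at least 1 FPKM, L597R over P-Enter (red circles) and WT over P-Enter (blue triangles). Both share the P-Enter library, and values are as deposited, without the regression. MMP3 at 1.41 in L597R over P-Enter is the only point right of the dotted line at 1, and ITGAV, SERPINB8, ITGB1 and MET follow at 0.54, 0.48, 0.38 and 0.38.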

How the data were processed

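RNA was extracted with Trizol and stranded mRNA libraries were made, per the labels' protocols. Per the submitters' processing notes, Trimmomatic, HISAT2, Cufflinks and HTSeq were used on hg38/GRCh38; versions, strand setting and annotation release are not given in the sources used here. Per the file headers, the values the authors deposited are FPKM, listed by Ensembl identifier.

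Members and lists were chosen with earlier results of these data known. Some genes of the lists are not reported here. A gene absent from the files counted as 0. Symbols came from a gene name table (23330 identifiers matched), while GENCODE 29 (GRCh38) gave positions, GC content and exon lengths (22807 matched). Whole reads were worked out by searching library totals and gene lengths that made all 3 values whole within 1e-05 plus 3e-09 per read. This succeeded for 23378 genes; 87.3% of the lengths lay within 10% of the annotated exon length. The reads summed to 100.3% of each total, for a reason not tested. Intervals of read ratios are exact Clopper-Pearson 95% intervals conditional on the summed reads. They cover counting error only, since reads copied by PCR are not separate molecules.

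No count model was fitted. All members were named; from each list, genes past the size rule, the 4 with the widest range and the 2 of highest level were named, and others, such as LRP1, MRC2, MMP1 and genes near a member, were added after their values were seen. The regression used cubic terms of log exon length, GC content and log mean FPKM over 9358 protein-coding genes. Read recovery, the size rule and the intervals were tested on simulated data with known answers. Alternatives were pseudocounts of 0.1 and 5, no filter or a mean of 5 FPKM, rescaling by the median ratio, the regression, read ratios and a threshold of 1.5-fold; the interval rule was added after the data were seen. Software: matplotlib 3.10.9, scipy 1.17.1, pandas 2.3.3 and numpy 2.4.6 under Python 3.11.15.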

Additional observations from a re-analysis of the deposited data

How the results depend on the processing

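The number of the 5 genes past the size rule was 0 in each of the 3 comparisons under every alternative run. These were pseudocounts of 0.1 and 5, no filter, a mean of at least 5 FPKM and rescaling by the median ratio. The regression, read ratios among genes with a mean of at least 1 FPKM and a threshold of 1.5-fold were the others. The pseudocount of 5 and the mean of at least 5 FPKM are stricter, so they could not raise a count of 0. At a pseudocount of 0.1 SERPINB2 had log2 differences of -1.11 for WT over P-Enter and 1.76 for L597R over WT. There the filter alone kept it out, and the run without a filter used a pseudocount of 1. Of 96 values of single members under alternatives, 93 stayed within the counting error of the read ratio and 0 called values changed sign. The 93 include the values under no filter and under a mean of at least 5 FPKM. Those equal the main values by construction and could not move. The other 3 were PLAU after the regression (-0.11 for L597R over P-Enter and -0.03 for L597R over WT on the log2 scale) and SERPINB2 for L597R over WT, which was 0.62 as log2(FPKM + 1) and 2.28 as a log2 read ratio, since adding 1 to low FPKM values compresses them. The number of members whose interval left out 1 was 3 for L597R over P-Enter, 2 for WT over P-Enter and 2 for L597R over WT, the same after rescaling, and 2, 3 and 2 after the regression, where for L597R over WT the interval of PLAU took in 1 and that of PLAUR left it out. Over all genes with a mean of at least 1 FPKM the interval lay above 1 for 25.5%, 14.0% and 22.1%. It lay below 1 for 23.9%, 12.1% and 16.3%, in the same order of comparisons. After the regression these shares were 18.7%, 10.7% and 14.7% above and 16.7%, 10.5% and 13.0% below, over protein-coding genes. SERPINB2, counted for WT over P-Enter and L597R over WT, has a lower mean and lay outside the genes fitted in the regression. Among genes of 0.1 to 1 FPKM the interval lay below 1 for 4.65% and above 1 for 3.93% there. Whether the 5 genes differ from these shares was not tested, so their counts are no result about them. No paired analysis was possible because each group has 1 library, and no library could be left out for the same reason. Depth limits SERPINB2 and PLAT, with 7 to 75 reads a library.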
